A study of Mus musculus with 8 samples.

Results

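The heat shock chaperones described here are 10 mouse genes, chosen by name from the gene symbols of the deposited tables: Hspa1a, Hspa1b, Hsph1, Dnajb1, Hsp90aa1, Hsp90ab1, Hspa8, Hspd1, Hspe1 and Hspa5. The tables list 13073 genes in all. All 10 were among the 12665 genes listed in vivo, and 8 were among the 12133 listed in vitro. Hspa1a and Hspa1b have no row in the in vitro tables and were not analysed there. RNA was sequenced from thymocytes in 4 groups of 2 libraries, and every mouse carried loxP-flanked Bcl6 alleles (Bcl6fl/fl). KO-labelled animals also carried Cd4cre (Bcl6fl/fl Cd4cre), a Cre recombinase driven by Cd4 regulatory sequence, so deletion depends on Cd4 expression during thymocyte development. WT-labelled animals were Bcl6fl/fl without it. For the in vitro libraries, thymocytes positive for both coreceptors were sorted, cultured for 24 h on plates coated with anti-CD3 (8 µg/ml) and anti-CD28 (8 µg/ml), and sorted again for cells negative for both. For the in vivo libraries, CD4-CD8-CD5+TCRb+ cells, the gate of agonist-selected precursors, came straight from the thymus. Ages are not given in the labels, and neither is whether replicates were separate animals or cultures. The p-values therefore measure only the spread between these libraries, which may be technical.

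Total counts ranged from 14754440 to 23975636 per library. All 11 thymocyte markers were listed in both systems, and the FPKM (fragment count scaled by transcript length and library depth) of the T cell receptor subunit Cd3e was between 88.8 and 123 in all 8 libraries. Transcripts of the gated-out coreceptors were present in all libraries, with Cd4 between 6.84 and 78.4 FPKM and Cd8a between 1.17 and 10.9 FPKM. Bcl6 had 64.6 and 61.0 FPKM in the in vitro KO-labelled libraries, against 24.9 and 21.9 FPKM in the WT-labelled ones, which runs against the label. In vivo it had 8.81 and 14.4 FPKM under the KO label and 11.5 and 13.9 FPKM under the WT label. Gene-level counts pool deleted and retained exons and do not check the labels, so groups are called by their labels throughout. The systems also differ in sequencing provider (Novogene in vitro, BGI in vivo), so a level set across them cannot be told apart from the provider.

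Chaperones bind unfolded or partly folded proteins and help them fold, assemble or be degraded. In the heat shock response, trimers of the transcription factor HSF1 bind arrays of the inverted pentamer nGAAn, called heat shock elements, and induce Hsp70, Hsp90 and their partners; damaged proteins in the endoplasmic reticulum (ER) induce Hspa5 through a separate pathway, the unfolded protein response. T cells also raise many chaperones when an antigen receptor signal starts growth and protein synthesis.

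The promoters of the Hsp70 pair are shown because these genes had the largest change of the group and changed together. Hspa1a and Hspa1b are single-exon genes encoding the stress-inducible cytosolic Hsp70. On mm10 with GENCODE M21, Hspa1b lies on chromosome 17 from 34956436 to 34959238 and Hspa1a from 34969190 to 34972156, both on the minus strand and 9951 bases apart. RefSeq promoter windows (GRCm38.p6, 250 bases before and 50 after the start) were found for 7 of the 10 genes, all but Hspa8, Hsp90aa1 and Hsp90ab1. The 250 bases before each start follow, 5′ to 3′ on the coding strand, from chr17:34959239-34959488 for Hspa1b and chr17:34972157-34972406 for Hspa1a, and the capitals mark a pair of heat shock units, GAANNTTC.
Hspa1b: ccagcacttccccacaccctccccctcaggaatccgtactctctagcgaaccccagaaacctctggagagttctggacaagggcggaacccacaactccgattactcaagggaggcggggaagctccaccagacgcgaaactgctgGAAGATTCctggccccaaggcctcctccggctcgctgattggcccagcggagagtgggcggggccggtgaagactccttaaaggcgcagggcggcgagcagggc
Hspa1a: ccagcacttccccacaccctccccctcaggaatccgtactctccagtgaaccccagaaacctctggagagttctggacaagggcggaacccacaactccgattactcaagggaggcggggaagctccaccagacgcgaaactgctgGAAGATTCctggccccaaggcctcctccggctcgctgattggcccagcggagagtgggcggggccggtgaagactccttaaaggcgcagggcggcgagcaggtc
The sequences are identical at 247 of 250 positions, and both hold the marked pair with its first base 104 bases before the start. That pair, or TTCNNGAA, occurs in 15.1% of all 32851 RefSeq windows searched on both strands, so its presence is common.

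Other motif matches belong to the mitochondrial pair, to Hsph1 and to Hspa5, and are shown in 30 bases each with the match in capitals. The longer array GAANNTTCNNGAA or TTCNNGAANNTTC, which contains the pair, was found in 198 windows (0.603%). The ER stress response element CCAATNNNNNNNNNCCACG or its reverse complement was found in 39 windows (0.119%). The Hspe1 stretch is chr1:55088053-55088082 on the plus strand, the Hsph1 stretch chr5:149636287-149636316 on the minus strand and the Hspa5 stretch chr2:34772020-34772049 on the plus strand.
Hspe1: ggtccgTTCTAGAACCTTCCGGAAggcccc
Hsph1: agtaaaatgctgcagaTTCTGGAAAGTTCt
Hspa5: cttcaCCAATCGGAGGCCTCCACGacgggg
The Hspe1 stretch holds 2 overlapping arrays, starting 89 and 84 bases before its start. Hspd1 is transcribed the other way from the same region, and the same bases lie in one of its windows. In Hsph1 the array lies after the start, 15 or 36 bases into the transcript in its 2 windows. In Hspa5 the ER element starts 65 bases before the start. None of the 3 motifs was found in the Dnajb1 windows. A match describes these letters and is not a measured binding site.

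In vivo, Hspa1a and Hspa1b were the chaperones that changed. Hspa1b had 57.9 and 67.2 FPKM in the KO-labelled libraries and 14.3 and 8.29 FPKM in the WT-labelled libraries. Hspa1a had 10.7 and 12.5 FPKM under the KO label and 2.82 and 1.80 FPKM under the WT label. Both KO-labelled libraries lay above both WT-labelled libraries for either gene, and WT replicate 2 was the lowest of the 4. Hspa1b rose by 2.46 on the log2 scale (SE 0.24, n = 2 per group, 5.51-fold; edgeR quasi-likelihood adjusted p = 0.0185 by Benjamini-Hochberg) and Hspa1a by 2.32 (SE 0.22, 4.98-fold; edgeR adjusted p = 0.0181). These were 2 of 10 chaperones called higher, against 0.284% of the 10227 genes tested in vivo. None was called lower and none had a log2 fold change below 0, against 0.821% of genes called lower and 1.10% called in either direction. At an unadjusted edgeR p under 0.05, Hsp90aa1, Hspa8 and Hspd1 would also count, against 14.1% of all genes tested in vivo. Without WT replicate 2 the log2 fold change of Hspa1a was 2.04 and no longer passed (edgeR adjusted p = 0.0604), while Hspa1b did (edgeR adjusted p = 0.0422).

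The split between the Hsp70 copies is uncertain, because 58.8% of 50-base windows of the Hspa1a transcript are identical in Hspa1b, and 62.3% the other way. Hspa1a took 16.4% and 16.4% of their summed counts in the KO-labelled libraries and 17.3% and 18.7% in the WT-labelled libraries. Summed before testing, the pair rose 5.42-fold, or 2.44 log2 units (SE 0.24; edgeR adjusted p = 0.0192). The gene model Gm20481 overlaps Hspa1a on the opposite strand, and the strand setting of the counting is not given in the sources used here.

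Marker sums of some other cell types were also higher in FPKM under the KO label in vivo. The 6 listed B cell markers summed to 27.4 and 20.1 FPKM under the KO label and 15.7 and 4.92 FPKM under the WT label. Of the defining ones, Ighm has no row, and none of the listed ones was at 0. The 8 listed myeloid markers summed to 365 and 201 FPKM under the KO label and 184 and 114 FPKM under the WT label. As a share of counts these overlapped, at 0.0435% and 0.0204% under the KO label and 0.0208% and 0.0128% under the WT label. Cd14 has no row and S100a8 was listed at 0 in WT replicate 2. None of the 5 tested markers of either type passed the test, with median log2 fold changes of 1.21 for B cell and 1.77 for myeloid markers. Marker sums of both types, like the Hsp70 pair, were lowest in WT replicate 2. That library was also the lowest in vivo in summed FPKM of all listed genes (226116). Its thymocyte marker sum in FPKM was the lowest as well (1229, against 1233 in WT replicate 1). As a share of counts that sum was not the lowest, at 0.636% against 0.586% in WT replicate 1. The summed FPKM of each of the 5 other folding lists given below was lowest in WT replicate 2 too. As a share of counts, heat shock factors and other heat-induced genes were lowest in KO replicate 1 instead (0.106%, against 0.111% in WT replicate 2). Immediate early genes, which tissue handling can induce, were listed in 17 of 17 cases. They summed to 838 and 1015 FPKM under the KO label and 1454 and 1003 FPKM under the WT label, overlapping. As a share of counts they did not overlap, at 0.222% and 0.272% under the KO label and 0.383% and 0.277% under the WT label. None of the 17 passed edgeR, and 9 of them had a log2 fold change above 0. The 7 NK and innate-like T markers summed to 446 and 430 FPKM under the KO label and 430 and 286 FPKM under the WT label. Their groups overlapped, and WT replicate 2 was again lowest. Thymic stroma markers, 4 of 8 listed, ran the other way, at 20.3 and 20.5 FPKM summed under the KO label and 22.0 and 26.5 FPKM under the WT label. The mitochondrially encoded share of counts was 1.89% and 1.94% under the KO label and 2.08% and 2.24% under the WT label, without overlap. The part of these values in the Hsp70 result was not tested. In a bulk sample, fewer cells of a type and less RNA per cell cannot be told apart.

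The ratio of inducible to constitutive Hsp70 was higher in vivo under the KO label. Hspa8 (chromosome 9, 40800984 to 40810087, plus strand) encodes Hsc70, the Hsp70 that cells make without stress. In vivo the summed FPKM of Hspa1a and Hspa1b was 0.513 and 0.547 of that of Hspa8 in the KO-labelled libraries, against 0.151 and 0.0939 in the WT-labelled libraries. The ratio was 0.530 ± 0.0237 under the KO label and 0.122 ± 0.0401 under the WT label (SD, n = 2 each), a 4.33-fold difference with no overlap. With 2 against 2 an exact two-sided permutation test cannot go below p = 0.333, the value found.

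**Figure D1:**
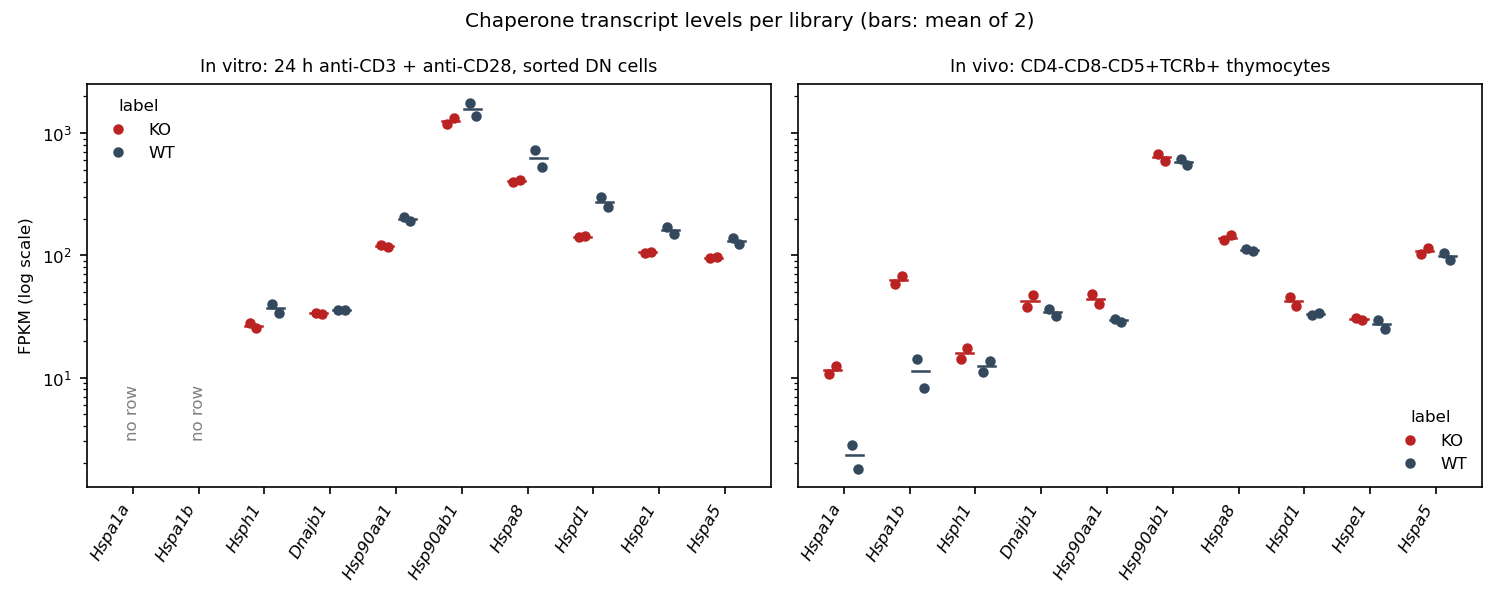
FPKM on a log axis of the 10 chaperones in each library, KO-labelled in red and WT-labelled in dark blue, with bars at the mean of 2 libraries. In vitro, both KO-labelled points lie below both WT-labelled points for all 8 listed genes; in vivo the widest gap is that of Hspa1a and Hspa1b, with KO-labelled libraries above.

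In vitro most of the listed chaperones fell under the KO label, namely Hspd1, Hsp90aa1, Hspa8, Hspe1, Hsph1 and Hspa5. Of the 8 listed chaperones, 6 fell (17.7% of the 9658 genes tested in vitro were called lower) and 0 rose (20.1% were called higher, and 37.8% in either direction). All 8 log2 fold changes were below 0. Their median log2 fold change was -0.51, against -0.00 for all genes tested. The 2 groups did not overlap for any of the 8, each with KO below WT, against 38.6% of all genes tested in that direction and 71.1% in either. The 8 together took 0.733% and 0.774% of counts in the KO-labelled libraries and 1.13% and 0.933% in the WT-labelled libraries. The mitochondrially encoded share of counts was also lower, at 1.69% and 1.49% under the KO label against 2.06% and 1.83% under the WT label, and its part in the result was not tested. Markers of other cell types were sparse in vitro. Only 2 of 7 B cell markers were listed, summing to 5.06 and 5.76 FPKM under the KO label and 2.95 and 2.85 FPKM under the WT label, and 3 of 9 myeloid markers were listed, without Lyz2 or Csf1r. Of the NK and innate-like T markers 2 of 7 were listed, at 121 and 155 FPKM summed under the KO label against 648 and 606 FPKM under the WT label, and Ncr1 and Eomes have no row. The 2 moved in opposite directions: Xcl1 fell by 2.16 on the log2 scale, and Zbtb16, below the level tested, was at 1.46 with every listed gene tested (SE 0.24; edgeR adjusted p = 0.000409). Thymic stroma markers, 3 of 8 listed without Foxn1 or Krt5, summed to 29.7 and 28.3 FPKM under the KO label and 15.6 and 17.4 FPKM under the WT label. Both tested stroma markers were called higher, Pecam1 by 0.87 and Epcam by 0.74 (edgeR adjusted p = 5.77e-05 and 0.00241). Both B cell markers were too, Cd79b by 0.90 and Cd79a by 0.98 (edgeR adjusted p = 0.00574 and 0.0246). The 1 tested myeloid marker, Cst3, did not pass (-0.08, edgeR adjusted p = 0.518). Below the level tested, with every listed gene tested, myeloid Itgam was at 2.61 (SE 0.79, edgeR adjusted p = 0.0208). In that fit Fcer1g was at 0.32 (edgeR adjusted p = 0.696) and the stroma marker Col1a1 at 1.54 (edgeR adjusted p = 0.0251). Immediate early genes summed to 426 and 485 FPKM under the KO label and 640 and 604 FPKM under the WT label. The part of these sums in the in vitro result was not tested.

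Hspd1 and Hspe1, which form the mitochondrial Hsp60 chaperonin and its Hsp10 lid, sit head to head on chromosome 1 (Hspd1 55077835 to 55088243, minus strand; Hspe1 55088132 to 55091307, plus strand) and overlap by 112 bases. In vitro, Hspd1 had 141 and 144 FPKM in the KO-labelled libraries and 297 and 249 FPKM in the WT-labelled libraries. It fell by 0.91 on the log2 scale (SE 0.10; edgeR adjusted p = 7.60e-05), which is the largest fall among the 8. Hspe1 had 104 and 107 FPKM under the KO label and 171 and 150 FPKM under the WT label, and fell by 0.58 (SE 0.09; edgeR adjusted p = 0.000481). Hspe1 FPKM was 0.740 and 0.745 of Hspd1 FPKM under the KO label and 0.575 and 0.601 under the WT label, with no overlap (1.26-fold; exact two-sided permutation p = 0.333, the smallest possible).

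In vivo the mitochondrial pair did not pass the test. Hspd1 had 45.8 and 38.7 FPKM under the KO label and 32.5 and 33.8 FPKM under the WT label (log2 fold change 0.34, SE 0.11; edgeR adjusted p = 0.245). Hspe1 had 30.9 and 29.4 FPKM under the KO label and 29.8 and 24.7 FPKM under the WT label (0.14, SE 0.13; edgeR adjusted p = 0.750), and its groups overlapped. The ratio of Hspe1 to Hspd1 was 0.675 and 0.760 under the KO label and 0.917 and 0.732 under the WT label, overlapping (exact two-sided permutation p = 0.667). Reads in the 112 shared bases cannot be assigned without the strand setting, and 44.8% of 50-base windows of Hspd1 recur in transcripts of other genes, none of them in the tables.

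Hsp90aa1 and Hsp90ab1 encode the inducible and the constitutive cytosolic Hsp90, which folds kinases and steroid receptors. Hsp90aa1 (chromosome 12, 110690605 to 110702728, minus strand) had 121 and 117 FPKM in vitro under the KO label and 207 and 191 FPKM under the WT label. That is a fall by 0.72 on the log2 scale (SE 0.10; edgeR adjusted p = 0.000214). Hsp90ab1 (chromosome 17, 45567775 to 45573271, minus strand) was the most abundant of the chaperones in FPKM, at 1177 and 1324 under the KO label and 1770 and 1389 under the WT label. Its in vitro log2 fold change of -0.31 (SE 0.16) did not pass (edgeR adjusted p = 0.149). WT replicate 2 lay nearer to the KO-labelled libraries than WT replicate 1 did, and without it the log2 fold change was -0.47 (edgeR adjusted p = 0.0212). In vivo the inducible form had 48.4 and 39.8 FPKM under the KO label and 30.3 and 28.5 FPKM under the WT label, without overlap, and did not pass (0.58, SE 0.13; edgeR adjusted p = 0.109). The constitutive form overlapped, with 674 and 595 FPKM under the KO label and 615 and 547 FPKM under the WT label (0.12, SE 0.13; edgeR adjusted p = 0.794).

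The ratio of the inducible to the constitutive Hsp90 differed in opposite directions in the 2 systems. In vitro Hsp90aa1 FPKM was 0.103 and 0.0883 of Hsp90ab1 FPKM under the KO label and 0.117 and 0.137 under the WT label. In vivo it was 0.0719 and 0.0668 under the KO label and 0.0493 and 0.0521 under the WT label. KO over WT was 0.751 in vitro and 1.37 in vivo, with no overlap of groups in either (exact two-sided permutation p = 0.333 in each, the smallest possible). The difference of these ratios between systems was not tested.

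**Figure D2:**
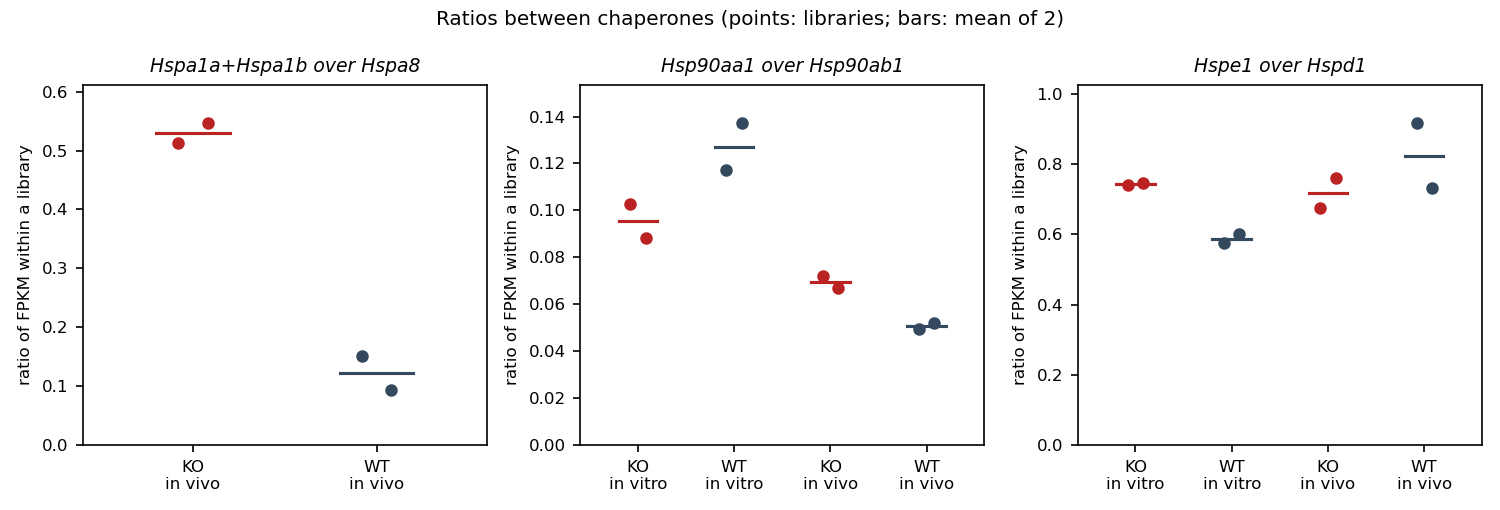
Ratio of FPKM within each library (linear axis from 0) for the inducible over the constitutive Hsp70, the inducible over the constitutive Hsp90, and the Hsp10 lid over Hsp60, with KO-labelled libraries in red, WT-labelled in dark blue and bars at the mean of 2. Groups overlap only for Hspe1 over Hspd1 in vivo.

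Hspa8, the constitutive Hsp70, had 401 and 414 FPKM in vitro under the KO label and 727 and 525 FPKM under the WT label. It fell by 0.59 on the log2 scale (SE 0.15; edgeR adjusted p = 0.0111). The call was lost without KO replicate 1 (-0.57; edgeR adjusted p = 0.0739) and without WT replicate 1 (-0.34; edgeR adjusted p = 0.0693). In vivo it had 134 and 146 FPKM under the KO label and 113 and 108 FPKM under the WT label, without overlap, and did not pass (0.33, SE 0.11; edgeR adjusted p = 0.226). Of its 50-base windows, 51.4% recur in transcripts of other genes, none in the tables, as do 58.5% of those of Hsp90aa1.

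Hsph1 and Dnajb1 are partners of Hsp70. Hsph1 (chromosome 5, 149614287 to 149636376, minus strand) encodes Hsp110, which exchanges the nucleotide on Hsp70, and Dnajb1 (chromosome 8, 83608193 to 83612653, plus strand) encodes the Hsp40 that stimulates its ATPase. Hsph1 had 28.1 and 25.3 FPKM in vitro under the KO label and 40.0 and 33.7 FPKM under the WT label, and fell by 0.44 on the log2 scale (SE 0.10; edgeR adjusted p = 0.00489). Dnajb1 had 33.6 and 33.3 FPKM under the KO label and 35.6 and 35.6 FPKM under the WT label (log2 fold change -0.06, SE 0.08; edgeR adjusted p = 0.560). In vivo Dnajb1 had 37.5 and 47.3 FPKM under the KO label and 36.6 and 31.7 FPKM under the WT label (0.31, SE 0.14; edgeR adjusted p = 0.410). Hsph1 had 14.1 and 17.4 FPKM under the KO label and 11.1 and 13.7 FPKM under the WT label (0.33, SE 0.15; edgeR adjusted p = 0.391). Both genes were higher in each KO-labelled library than in either WT-labelled library in vivo, and neither passed.

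Hspa5 (chromosome 2, 34771970 to 34777547, plus strand) encodes BiP, the Hsp70 of the ER lumen. In vitro it had 95.1 and 96.1 FPKM under the KO label and 139 and 123 FPKM under the WT label, and fell by 0.43 on the log2 scale (SE 0.09; edgeR adjusted p = 0.00440). In vivo it had 103 and 116 FPKM under the KO label and 104 and 92.3 FPKM under the WT label, overlapping (0.14, SE 0.12; edgeR adjusted p = 0.708). Counting overlaps, 7 of the 10 chaperones lay wholly higher under the KO label in vivo and 0 wholly lower, against 22.0% and 21.4% of all genes tested (43.4% in either direction), and Hsp90ab1, Hspe1 and Hspa5 overlapped. All 10 log2 fold changes were above 0, with a median of 0.33 against -0.00 for all genes.

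The KO-minus-WT effect in vivo was set against that in vitro in one fit over all 8 libraries. The difference was above 0 for each of the 8 chaperones measured in both systems, with a median of 0.77 log2 units against -0.00 for all genes. It passed the test for 6 of 8, against 6.57% of the 9364 genes tested that were higher, 9.81% lower and 16.4% either. Hsp90aa1 differed most, by 1.32 (SE 0.16; edgeR adjusted p = 0.000889), followed by Hspd1 by 1.28 (SE 0.16; edgeR adjusted p = 0.00102). Hspa8, Hsph1, Hspe1 and Hspa5 differed by 0.95, 0.81, 0.74 and 0.60. Dnajb1 (0.39, SE 0.17; edgeR adjusted p = 0.131) and Hsp90ab1 (0.46, SE 0.22; edgeR adjusted p = 0.174) did not pass. The count of 6 was 3 without in vitro KO replicate 1 and 3 without in vitro WT replicate 1.

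**Figure D3:**
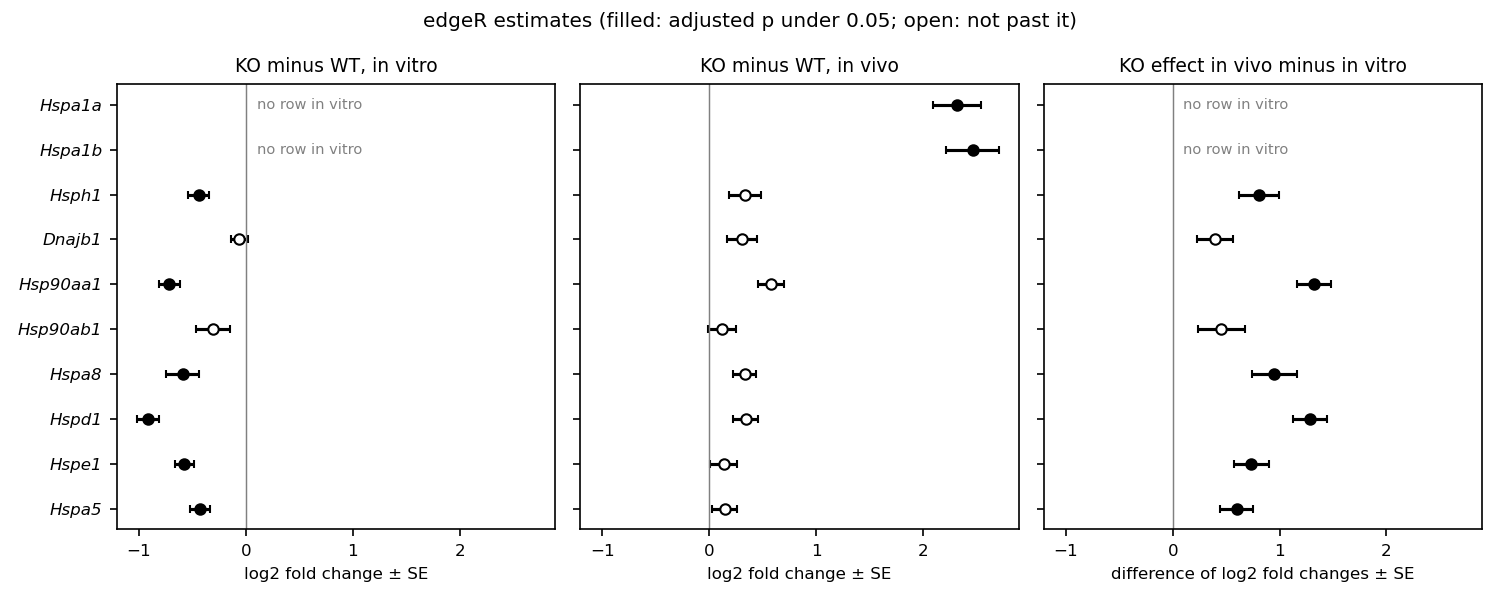
edgeR log2 fold changes with SE (bars) of each chaperone for KO minus WT in vitro, KO minus WT in vivo, and the in vivo effect minus the in vitro effect; filled points passed adjusted p under 0.05. In vitro estimates lie below 0, in vivo estimates above 0, with Hspa1a and Hspa1b at 2.32 and 2.46, and the 2 have no in vitro row.

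Across the 4 groups, Hsph1, Hsp90aa1, Hsp90ab1, Hspa8, Hspd1 and Hspe1 kept one order of mean FPKM, from in vitro WT through in vitro KO and in vivo KO to in vivo WT. Neighbouring groups did not overlap at any step for Hsph1, Hsp90aa1, Hspa8 and Hspd1. Of all genes tested, KO and WT did not overlap in 71.1% in vitro and 43.4% in vivo. The share of all genes with this order, or with all 4 groups apart, was not counted, so neither can be called unusual. For Hsp90ab1 and Hspe1 the in vivo groups overlapped. Hspa5 was highest in the in vitro WT-labelled libraries. Its in vivo WT-labelled libraries overlapped both KO-labelled groups, while the in vivo KO-labelled libraries lay above the in vitro KO-labelled ones. Dnajb1 was highest in the in vivo KO-labelled libraries. Its in vivo WT-labelled libraries overlapped both in vitro groups, which did not overlap each other. Mean FPKM in vitro over in vivo ranged from 0.789 for Dnajb1 to 3.51 for Hspe1 under the KO label, and from 1.04 for Dnajb1 to 8.24 for Hspd1 under the WT label. Hspd1 had 3.37 under the KO label. Culture, stimulation and provider differ together between the systems and cannot be told apart.

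Other parts of the folding machinery were counted from lists, to be read beside the 17.7% of all genes tested in vitro that were called lower and the 20.1% called higher. Of 14 tested subunits of the TRiC chaperonin, which folds actin and tubulin, and of its partner prefoldin, 10 fell in vitro and 0 rose (median -0.40). Cct6a, Tcp1, Cct8 and Cct2 changed by -0.55, -0.49, -0.50 and -0.43. Of 15 other mitochondrial chaperones and proteases 7 fell and 0 rose (median -0.24). Hspa9, the mitochondrial Hsp70, had 54.4 and 56.3 FPKM under the KO label and 99.9 and 90.9 FPKM under the WT label, a change of -0.76 (SE 0.09; edgeR adjusted p = 7.93e-05). Its partner Dnaja3 changed by -0.60, and the mitochondrial Hsp90 Trap1 by -0.39. The count of 7 was 3 without WT replicate 1 and 4 without WT replicate 2.

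Of 23 Hsp70 and Hsp90 co-chaperones 12 fell in vitro (median -0.23). Hspa4, an Hsp110, had 60.5 and 57.8 FPKM under the KO label and 97.0 and 89.4 FPKM under the WT label, a change of -0.63 (SE 0.09). Cacybp changed by -0.59 and the cyclophilin Ppid by -0.59. Of 27 other ER chaperones and unfolded protein response genes 10 fell and 2 rose (median -0.22). The lectin chaperones Calr and Canx changed by -0.64 and -0.52 and Hyou1 by -0.47, while the ER stress sensor Atf6 rose by 0.47. Of these calls, the 10 were 6 without WT replicate 1, and the 2 were 1 without KO replicate 1, WT replicate 1 or WT replicate 2. Among 11 heat shock factors and other heat-induced genes 2 fell and 1 rose (median -0.12), a share of lower genes near the 17.7% of all genes. Hspa4l changed by -0.42, the heat shock factor Hsf2 by -0.39 and the HSF1-binding protein Hsbp1 by 0.24. Hsf1 itself did not pass (-0.21, SE 0.09; edgeR adjusted p = 0.0710).

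In vivo none of the 94 tested genes of these 5 lists passed edgeR, against 1.10% of all genes tested, with list medians from -0.01 to 0.09. Of the 94, 6 had an unadjusted edgeR p under 0.05, against 14.1% of all genes tested, the lowest that of the steroid receptor co-chaperone Fkbp5 (0.60, SE 0.15; edgeR adjusted p = 0.139). DESeq2 called 1 co-chaperone higher there. For the difference between systems, 9 of 23 co-chaperones were higher, 8 of 14 TRiC and prefoldin genes were higher, and 3 of 15 mitochondrial and 3 of 27 ER genes were higher. Without in vitro WT replicate 1 these higher counts were 4, 1, 1 and 0 in the same order; without in vivo WT replicate 1 the mitochondrial and ER counts were 5 and 11.

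**Figure D4:**
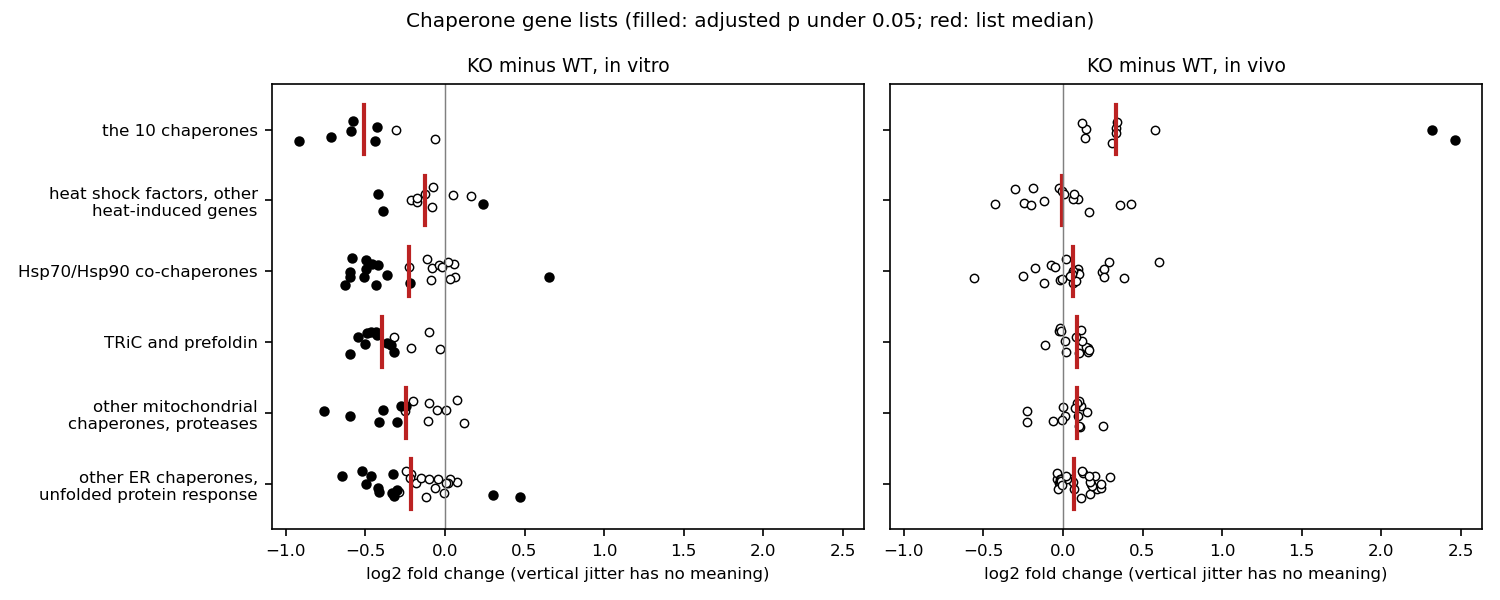
log2 fold change of every tested gene of the 10 chaperones and of 5 other lists, in vitro and in vivo; filled points passed adjusted p under 0.05 and red bars are list medians. In vitro most filled points lie below 0, and in vivo the only filled points are Hspa1a and Hspa1b.

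Genes with the most similar pattern were ranked by the root mean square difference of log2 CPM (counts scaled to a common depth) centred within each system. Predicted genes, pseudogenes, clone-named genes and segments of T cell receptor and immunoglobulin genes were passed over. For Hspd1 only genes tested in both systems were ranked, and for the Hsp70 pair those tested in vivo. Over 8 libraries, Hspd1 was nearest to Pus7 (0.0587), Nolc1 (0.0588), Car12 (0.0714), Hspa9 (0.0732) and Gnl3 (0.0763). Over the 4 in vivo libraries, the summed Hsp70 pair was nearest to Hmga2 (0.313), Jchain (0.348), Cdh3 (0.353), Ifitm2 (0.381) and Syt13 (0.394). The distances for Hspd1 and for the Hsp70 pair cannot be set side by side, since they rest on different libraries and on changes of different size. Jchain and Ifitm2 did not pass the in vivo test (edgeR adjusted p = 0.122 and 0.0683).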

How the data were processed

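RNA sequencing of 8 libraries was used, 2 in each of 4 groups taken from the labels. Each deposited table holds, per gene, a whole-number count and an FPKM value made by the authors, per the file headers. The submitters' processing notes name mm10 and the tools RSEM, featureCounts (Subread), Bowtie2, DESeq2 and Trim Galore 0.4.4, without roles; the strand setting is not given in the sources used here. For the 10 chaperones the deposited FPKM equalled the count divided by the summed exon length in GENCODE M21 and by 1 constant per library. No columns of other samples were present (0).

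Counts were tested with edgeR 4.0.16 (R 4.3.3; quasi-likelihood, TMM) on each system's 4 libraries, after dropping genes that did not reach an FPKM of 1 in 2 or more libraries. This left 9658 genes in vitro and 10227 in vivo, and every listed chaperone passed. One fit over the 8 libraries tested how the KO effect differed between systems, on 9364 genes. Tests were two-sided, with a Benjamini-Hochberg adjusted p under 0.05 as threshold and SE taken as the size of the log2 fold change divided by the root of the F statistic. Ratios within a library were compared by exact permutation. Scripts were tested on simulated data.

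The chaperones and lists were chosen with earlier results of these data known. All 10 chaperones are named, with up to 4 called genes of each list by smallest adjusted p, and the 5 genes nearest in pattern to Hspd1 and to the summed Hsp70 pair. That last ranking was planned over 8 libraries and used the 4 in vivo ones, since the pair has no in vitro row. Hsf1, Fkbp5 and the marker genes were named for their role or after their values were seen. A few list genes are left unreported here. Alternatives were filters, scalings, DESeq2 1.42.0, limma 3.58.1 on log2(FPKM + 1) and log2(FPKM + 0.1), a replicate block, summed Hsp70 counts, all 8 libraries in 1 fit and omission of 1 library at a time, which supposes that the single library remaining varies as the rest do. Chi-square per degree of freedom between replicates was 11.1 to 22.8, above sampling noise, so each library counted once. edgeR's biological coefficient of variation came to 0.0727 (in vitro) and 0.121 (in vivo).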

Additional observations from a re-analysis of the deposited data

Results flagged for a closer look

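For 6 chaperones the KO-minus-WT effect differed between the in vivo and the in vitro system by the test of the difference itself (edgeR over 8 libraries, adjusted p under 0.05 over 9364 genes). The in vivo effect minus the in vitro effect was 1.32 log2 units for Hsp90aa1 and 1.28 for Hspd1. It was 0.95 for Hspa8 (SE 0.21; edgeR adjusted p = 0.0124) and 0.81 for Hsph1 (SE 0.18; edgeR adjusted p = 0.0148). For Hspe1 it was 0.74 (SE 0.16; edgeR adjusted p = 0.0122) and for Hspa5 0.60 (SE 0.16; edgeR adjusted p = 0.0257). All 6 genes fell in vitro, and in vivo none of the 6 passed the test. Groups of 2 are too small to test for outlying libraries.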

How the results depend on the processing

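Of 412 refits of single chaperones under the alternatives, 392 kept direction and side of the threshold, 12 lost a call, 8 gained one and 0 reversed. Without in vivo WT replicate 2, Hspa1a lost its call. In vivo, DESeq2 called 505 genes (260 higher, 245 lower) against 113 (29, 84), limma 68 (14, 54) at pseudocount 1 and 75 (16 higher) at 0.1, and the fit over all 8 libraries 545 (266, 279). Leaving out a library gave 7 to 279 genes in vivo (1 to 193 higher, 6 to 124 lower); WT replicate 2 left out gave the 7 and KO replicate 1 left out gave 21. In vitro such fits gave 1108 to 1597 lower genes against 1709, the lowest without WT replicate 1. For the difference they gave 533 to 1816 genes (159 to 843 higher, 374 to 976 lower) and 3 to 7 chaperones higher against 6. The 12 lost calls include Hspa5 in 4 fits, and Hsph1 and Hspe1 in 2 each.

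The labels do not say whether same-numbered libraries were paired or handled together, and a shared source is not known. Their deviations correlated at -0.305 in vitro and 0.459 in vivo. The replicate block called 1078 genes in vivo (607, 471) and 3159 in vitro, and 4 chaperones higher in vivo, adding Hsp90aa1 (0.57; edgeR adjusted p = 0.00411) and Hsph1 (0.34; edgeR adjusted p = 0.0455). The crossed pairing, added after the data were seen, called 4997 genes in vitro and 71 in vivo (14 higher). Hsp90aa1 in vivo also passed with DESeq2 (adjusted p = 0.00484) and in the fit over 8 libraries (edgeR adjusted p = 0.0165). Chaperones called higher in vivo numbered 1 to 2 with a library left out, 1 with the Hsp70 pair summed, and 1 (Hsp90aa1) in the fit over 8 libraries, which holds neither Hspa1a nor Hspa1b. DESeq2 also called Hsp90ab1 lower in vitro (adjusted p = 0.0239). Summing the pair does not apply in vitro or to the difference. Ratios from counts per annotated exon length equalled those from FPKM by construction, since the deposited FPKM uses those lengths. The cause of these changes was not tested. The lowest count behind any chaperone value was 86, for Hspa1a in in vivo WT replicate 2.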

Other observations

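Hspa1l, the germ-cell Hsp70 gene next to the inducible pair and sharing some of its sequence, was listed in both systems below the level tested. It had 24 and 25 counts in vitro under the KO label and 51 and 35 under the WT label, and in vivo 4 and 8 counts under the KO label and 12 and 16 under the WT label. With every listed gene tested, its log2 fold change was -0.77 in vitro (SE 0.31; edgeR adjusted p = 0.0696) and -1.15 in vivo (SE 0.56; edgeR adjusted p = 0.433). In vivo it stood lower in both KO-labelled libraries, where Hspa1a and Hspa1b stood higher. It was chosen after its values were seen.

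Of 14 immediate early genes tested in vitro, 4 were called lower and 2 higher, beside 17.7% and 20.1% of all genes tested. Atf3, a stress-responsive transcription factor and 1 of the 2, was listed at 0 counts in both in vitro WT-labelled libraries. The KO-labelled libraries had 110 and 85 counts of it. In vivo its log2 fold change of 1.54 did not pass (SE 0.35; edgeR adjusted p = 0.122).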
